A study of Mus musculus with 9 samples.

Results

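The 7 Hedgehog pathway genes Smo, Ihh, Shh, Ptch1, Hhip, Sufu and Gli3 were followed in sorted intestinal cells of newborn mice. They are the ligands Ihh and Shh, the receptor Ptch1, the ligand-binding inhibitor Hhip, the signal transducer Smo, and the intracellular regulators Sufu and Gli3. They were taken by symbol from the 24421 genes counted in each of 9 RNA-seq libraries. The genes were chosen by a list drawn up with earlier results of these libraries in view, the measured values used being the levels of Smo in the 2 WT groups, so the EphB2-positive against EphB2-negative difference in WT is given as a description with no test, as is the difference of genotype effects for Smo, which contains it. Genotype tests of Smo also draw on those WT levels, so their p-values are not independent of how the genes were chosen. Of the 7 members, 4 had enough reads to be tested (Smo, Ihh, Ptch1 and Sufu), and Shh, Hhip and Gli3 together had 9 reads in all libraries.

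At postnatal day 6, single cells were prepared from the intestine of C57BL/6 mice and separated with an antibody into EphB2-positive and EphB2-negative cells. EphB2, a receptor tyrosine kinase of crypt cells, is lost as they move towards the villus. There were 2 libraries of each sort from wild-type (WT) mice and, from mice labelled as IκBα knockouts (KO), 3 libraries of EphB2-positive and 2 of EphB2-negative cells. IκBα, the product of Nfkbia, binds NF-κB dimers and keeps them out of the nucleus, and the series title names a fetal phenotype of intestinal stem cells that lack it as its subject. All 4 groups share the strain and the age, and no other treatment is labelled. The sources used here do not say how the gene was removed, in which cells, or how many animals gave each library. The spread that p-values rest on may therefore be technical.

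Hedgehog ligands bind Ptch1, which in their absence keeps Smo inactive. Once Smo is released it moves to the primary cilium and frees the GLI transcription factors from SuFu, and GLI in turn raises Ptch1, Gli1 and Hhip. In the intestine the epithelium is the known source of Ihh and Shh, while the known responding cells, with high Ptch1, Gli1 and Hhip, are mainly fibroblasts and smooth muscle under it.

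The libraries held 1503972 to 2074076 reads in genes, at which 3 reads in a single library correspond to 1.45 to 1.99 CPM (counts adjusted for the size and composition of each library). Nfkbia had 58 and 163 reads in WT EphB2-positive, 47 and 114 in WT EphB2-negative and 0 in each of the 5 KO libraries. In the EphB2-positive sort Ephb2 itself stood at 151 ± 12.99 CPM (mean ± SD) in WT and 179 ± 6.83 CPM in KO, and in the EphB2-negative sort at 95.7 ± 40.9 and 32.5 ± 2.60 CPM. All 10 epithelial markers had reads in every group, with summed levels of 6697 to 11533 CPM per library. WT EphB2-negative replicate 1 stood apart from its partner: its log2 CPM across genes had r = 0.941 and 0.942 with the WT EphB2-positive libraries and 0.863 with WT EphB2-negative replicate 2, and that pair had a chi-square per degree of freedom of 25.6, while the other 5 replicate pairs had 1.95 to 4.40. Which of the 2 is the unusual library cannot be told from a pair. Goblet cell markers summed to 24066 CPM in WT EphB2-negative replicate 2, against 2980 CPM in replicate 1 and 6153 and 8493 CPM in the KO EphB2-negative libraries. Results that rest on WT EphB2-negative replicate 1 are also given without it.

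The windows of 250 bases before the start sites of 3 tested members are printed here because their levels followed 3 different courses: Ihh, which was low in KO EphB2-positive cells, Smo, which followed the sort, and Sufu, which passed no test. They are RefSeq sequences for GRCm38.p6, read 5′ to 3′ on the strand of the gene, and capitals mark a match to the NF-κB consensus.
Ihh promoter, chr1:74951673-74951922, minus strand: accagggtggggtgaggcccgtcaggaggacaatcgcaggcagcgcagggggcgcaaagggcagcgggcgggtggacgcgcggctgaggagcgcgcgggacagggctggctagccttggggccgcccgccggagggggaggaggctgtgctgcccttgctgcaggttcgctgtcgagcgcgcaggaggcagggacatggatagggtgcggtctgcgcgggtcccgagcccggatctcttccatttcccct
Smo promoter, chr6:29735247-29735496, plus strand: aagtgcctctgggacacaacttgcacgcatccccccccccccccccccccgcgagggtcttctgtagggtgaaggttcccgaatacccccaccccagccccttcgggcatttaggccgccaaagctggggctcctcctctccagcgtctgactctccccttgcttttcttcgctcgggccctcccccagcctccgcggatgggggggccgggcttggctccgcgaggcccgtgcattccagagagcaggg
Sufu promoter, chr19:46396646-46396895, plus strand: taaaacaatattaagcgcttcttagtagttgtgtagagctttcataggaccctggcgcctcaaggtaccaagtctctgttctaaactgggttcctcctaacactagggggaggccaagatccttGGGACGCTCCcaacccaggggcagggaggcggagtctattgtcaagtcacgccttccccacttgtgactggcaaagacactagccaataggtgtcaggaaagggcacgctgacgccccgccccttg
G and C made up 72.0% of the Ihh window, 68.4% of the Smo window and 54.0% of the Sufu window, against a median of 52.4% over 32851 promoter windows of the same length (quartiles 45.2% and 61.2%). A promoter sequence was matched for 6 of the 7 members, and Shh had none in the table used. Both strands were searched for GACCACCCA, the GLI core, for the NF-κB consensus by its name, and for CTTTGAT or CTTTGTT, the core of TCF sites. The only match in these 6 windows was to the NF-κB consensus in Sufu, GGGACGCTCC, 126 bases before the start. Of all promoter windows, 0.225% held the GLI letters, 7.25% the NF-κB consensus and 8.06% the TCF letters. A match is a description of the letters and not of binding.

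Ihh, the ligand known from the differentiated gut epithelium, was by far the more abundant ligand and was low in 1 group, KO EphB2-positive cells. It lies on chromosome 1 from 74945315 to 74951672 on GRCm38, minus strand (ENSMUSG00000006538). It had 46.7 and 61.7 CPM in the WT EphB2-positive libraries, 66.7 and 61.9 CPM in WT EphB2-negative, 26.7, 15.7 and 15.9 CPM in KO EphB2-positive and 69.7 and 45.8 CPM in KO EphB2-negative. All 3 KO EphB2-positive libraries lay below the other 6, and the range of the KO EphB2-negative pair covered the 4 WT libraries. In EphB2-positive cells Ihh fell 2.83-fold with the loss of IκBα, from 54.2 ± 10.6 to 19.4 ± 6.28 CPM (log2 fold change -1.50 ± 0.27 SE, adjusted p = 0.0060 by edgeR's quasi-likelihood test). It was 1 of 4 tested members called in this comparison, in which 15.1% of the 11577 genes tested were called, 7.01% higher and 8.07% lower. Without WT EphB2-positive replicate 2 the fall was 1.27 on the log2 scale and did not pass (adjusted p = 0.075, range over the 16 alternatives 1.8e-05 to 0.075), and without WT EphB2-negative replicate 1 it was 1.50.

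In EphB2-negative cells the Ihh values of KO and WT differed by less than their spread (log2 fold change -0.15 ± 0.28, adjusted p = 0.70). The test of the difference between the genotype effects in the 2 sorts gave -1.35 ± 0.39 on the log2 scale and did not pass (adjusted p = 0.051, range over 16 alternatives 0.0135 to 0.204). None of Ihh, Ptch1 and Sufu was called in that test by edgeR, in which 12.4% of all genes were called, 6.54% with a positive and 5.81% with a negative difference. At an unadjusted p under 0.05 there was 1, Ihh, and DESeq2 called 0. The side of the threshold turned on the setting: Ihh passed in 7 of the 16 alternatives, namely with DESeq2 size factors (adjusted p = 0.047), no filter (0.040), voom with quality weights (0.046) and a block on the code in the file names (-1.59, 0.033), and without WT EphB2-negative replicate 1 (-1.40, 0.016) or 2 (-1.29, 0.0135) or KO EphB2-positive replicate 1 (-1.61, 0.048).

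Between the sorts, Ihh was 3.02-fold lower in EphB2-positive than in EphB2-negative KO cells (log2 fold change -1.59 ± 0.28, adjusted p = 0.0011), while the WT groups stood at 54.2 ± 10.6 and 64.3 ± 3.33 CPM (log2 difference -0.25 ± 0.28, not tested). Absorptive enterocyte markers, taken as a sum, were also lowest in KO EphB2-positive cells but, unlike Ihh, differed widely between the WT sorts. Their summed level over 15 genes was 1784 and 3448 CPM in WT EphB2-positive and 825 to 1045 CPM in KO EphB2-positive libraries. It was 12308 and 30270 CPM in the WT EphB2-negative pair and 26035 and 37842 CPM in KO EphB2-negative libraries. In KO against WT EphB2-positive cells 6 of the 15 fell, 0 rose and 9 did not pass, where 8.07% of all genes were called lower. The part of absorptive enterocytes in the Ihh result was not tested, and in bulk samples fewer cells of a type and less RNA per cell cannot be told apart.

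Shh, the other ligand of the gut epithelium (chromosome 5, 28456815 to 28467256, minus strand), had 1 read in WT EphB2-positive replicate 2, 1 in WT EphB2-negative replicate 1 and 0 in each of the other 7 libraries. Over all libraries this is 0.0414 RPKM, that is CPM per kilobase of exon (exact Poisson 95% interval 0.00501 to 0.149), against 15.1 RPKM for Ihh (14.0 to 16.2), so the intervals do not overlap on this per-length scale. Such intervals cover counting error only, since the cDNA was amplified by PCR without molecular identifiers. The 0 reads in the KO EphB2-positive libraries have an exact Poisson upper limit of 0.668 CPM, so no difference between groups was detectable for Shh at this depth. An exon of Shh overlaps a gene on the opposite strand, 9530036O11Rik, and without a stated strand setting reads of the overlap cannot be told apart.

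**Figure D1:**
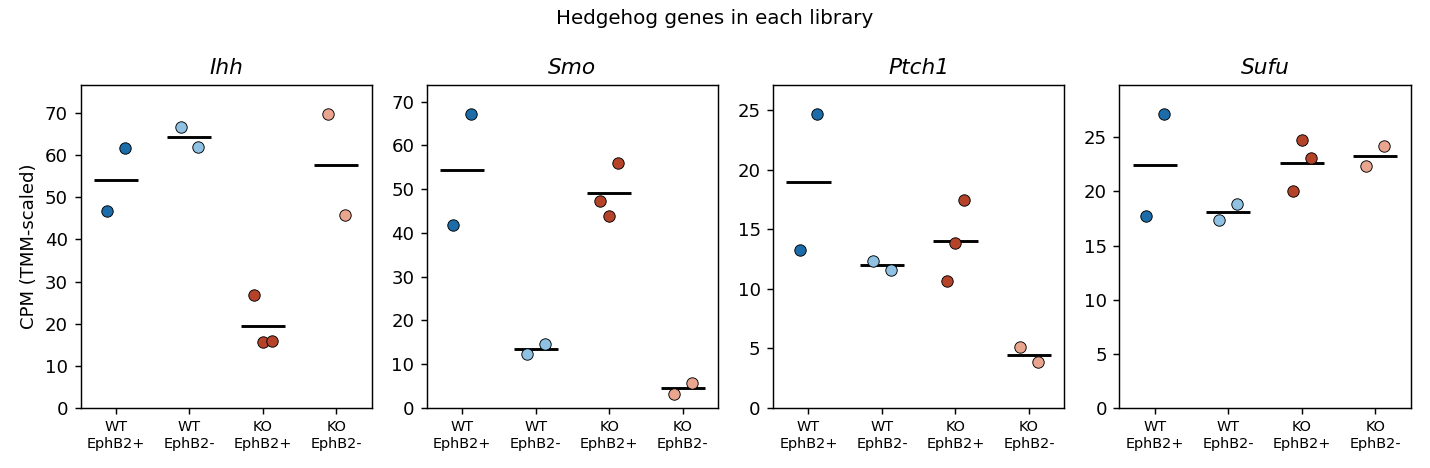
CPM of the 4 tested Hedgehog genes in each of the 9 libraries (points, vertical axis from 0), by genotype and EphB2 sort, with group means as bars. The KO EphB2-positive libraries lie lowest for Ihh, at 15.7 to 26.7 CPM, the EphB2-negative libraries lie below every EphB2-positive library for Smo, and the KO EphB2-negative libraries lie lowest for Smo and Ptch1.

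Ptch1, the Hedgehog receptor and itself a GLI target, was low in KO EphB2-negative cells. It lies on chromosome 13 from 63508328 to 63573598, minus strand (ENSMUSG00000021466). It had 13.3 and 24.7 CPM in the WT EphB2-positive libraries, 12.3 and 11.6 CPM in WT EphB2-negative, 10.7, 13.8 and 17.5 CPM in KO EphB2-positive and 5.12 and 3.82 CPM in KO EphB2-negative, the last from 8 and 6 reads. Both KO EphB2-negative libraries lay below all others. The WT EphB2-negative pair lay below the WT EphB2-positive pair, and the KO EphB2-positive libraries overlapped both. KO was 2.65-fold lower than WT in EphB2-negative cells (log2 fold change -1.41 ± 0.46, adjusted p = 0.042), a call near the threshold that was kept in 4 of 16 alternatives (adjusted p 0.029 to 0.22). It was lost when WT EphB2-negative replicate 1 (adjusted p = 0.067), any 1 of the 3 KO EphB2-positive libraries (0.0503, 0.067 and 0.056 without replicates 1, 2 and 3) or either KO EphB2-negative library (0.10 and 0.20 without replicates 1 and 2) was left out, with a log2 fold change of -1.65 to -1.23 over all libraries left out. In EphB2-positive cells the values of KO and WT overlapped (log2 fold change -0.43 ± 0.34, adjusted p = 0.45), and the test of the difference between the sorts gave 0.98 ± 0.57 (adjusted p = 0.28).

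In KO cells Ptch1 was 3.12-fold higher in the EphB2-positive than in the EphB2-negative sort (log2 fold change 1.64 ± 0.43, adjusted p = 0.0089). The call was lost without KO EphB2-negative replicate 2 (1.46, adjusted p = 0.070, range over 17 alternatives 0.0021 to 0.070). In WT the means were 18.97 ± 8.06 and 11.97 ± 0.504 CPM in the same order, a log2 difference of 0.66 ± 0.38 that was not tested and that was 0.14 without WT EphB2-positive replicate 2. Hhip, which binds the ligands and is another GLI target (chromosome 8, 79965851 to 80058006, minus strand), had 1 read in KO EphB2-negative replicate 1 and 0 in each of the other 8 libraries, or 0.00649 RPKM over all (1.64e-04 to 0.0362).

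Smo, the seven-pass membrane protein that carries the signal into the cell, had the widest range of the members tested and followed the sort. It lies on chromosome 6 from 29735503 to 29761365, plus strand (ENSMUSG00000001761). It had 41.8 and 67.1 CPM in the WT EphB2-positive libraries, 12.3 and 14.5 CPM in WT EphB2-negative, 47.4, 43.8 and 56.0 CPM in KO EphB2-positive and 3.20 and 5.73 CPM in KO EphB2-negative. The EphB2-positive libraries of the 2 genotypes overlapped, every EphB2-negative library lay below them, and the 2 KO EphB2-negative libraries lay below the 2 WT ones.

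In KO cells Smo was 10.8-fold higher in the EphB2-positive sort, with 49.1 ± 6.29 CPM, than in the EphB2-negative sort, with 4.47 ± 1.79 CPM (log2 fold change 3.44 ± 0.35, adjusted p = 7.7e-05). The call was kept in all 17 alternatives (log2 fold change 3.10 to 3.93), those that left out a single library among them. Smo and Ptch1 higher and Ihh lower made 3 of 4 tested members called in this comparison, where 55.5% of all genes were called, 26.4% higher and 29.2% lower, so a call here is common. In WT, where the level of Smo was known when the genes were listed, it stood at 54.4 ± 17.9 against 13.4 ± 1.55 CPM, a 4.04-fold difference (log2 2.02 ± 0.29, 1.90 without WT EphB2-negative replicate 1 and 1.63 without WT EphB2-positive replicate 2).

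Between genotypes, Smo in EphB2-positive cells differed by less than its spread (log2 fold change -0.15 ± 0.24, adjusted p = 0.74). In EphB2-negative cells it was 2.97-fold lower in KO (4.47 ± 1.79 CPM) than in WT (13.4 ± 1.55 CPM; log2 fold change -1.57 ± 0.41, adjusted p = 0.018). Smo and Ptch1 were 2 of 4 tested members called there, where 29.9% of all genes were called, 13.7% higher and 16.2% lower. Both genotype comparisons of Smo use a WT level that was in view when the genes were chosen. Their p-values, and the place of Smo in this count, are therefore not independent of that choice. The Smo call was kept in 12 of 16 alternatives (adjusted p 0.013 to 0.18). It was lost without KO EphB2-negative replicate 1 (-1.23, adjusted p = 0.12) or replicate 2 (-2.06, adjusted p = 0.052), each of which leaves 1 library in the group, and kept without WT EphB2-negative replicate 1 (-1.68, adjusted p = 0.015). The difference between the genotype effects in the 2 sorts was 1.42 ± 0.48 on the log2 scale (1.09 to 1.92 over 16 alternatives), a value that contains the WT sort difference and was not tested.

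**Figure D2:**
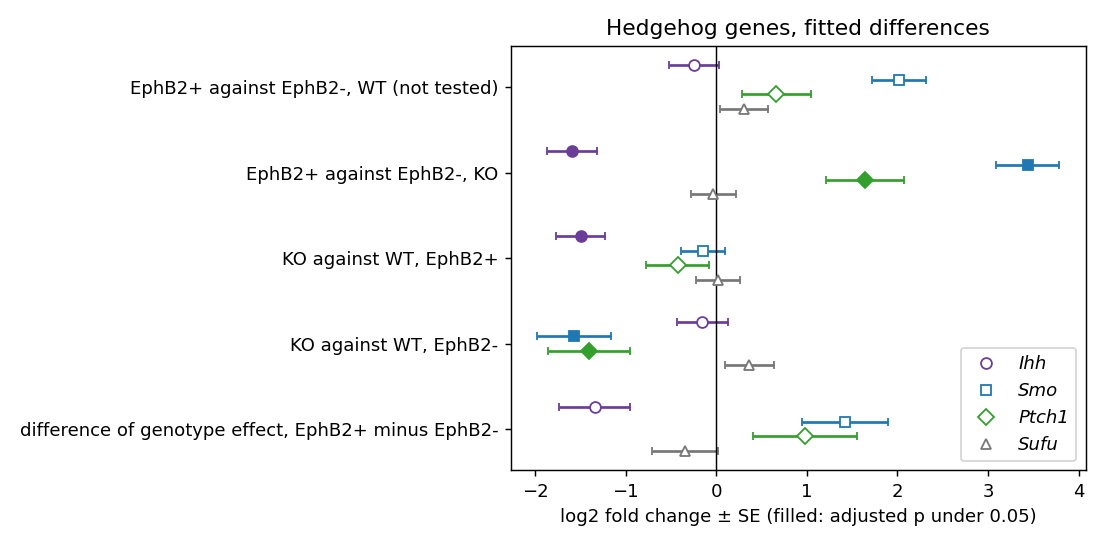
Fitted log2 fold changes ± SE (horizontal axis) of Ihh, Smo, Ptch1 and Sufu in the 5 comparisons (rows), with filled symbols for adjusted p under 0.05. The WT sort difference is drawn open because it was not tested. Smo in the difference of effects is also open, and is given as a description. Smo in KO has the largest value, 3.44, Ihh is the filled symbol in KO against WT EphB2-positive cells, and Smo and Ptch1 are those in EphB2-negative cells.

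Crypt genes were higher in the EphB2-positive sort, as Smo and Ptch1 were. Olfm4 was the largest part of their sum in EphB2-positive cells, with 3278 CPM in WT and 1605 CPM in KO. That sum was lower in KO than in WT EphB2-positive cells, where Smo and Ptch1 overlapped between genotypes. Gene by gene, 1 of the 12 tested crypt genes rose there, 1 fell and 10 did not pass, where 15.1% of all genes were called. Their median log2 fold change was -0.67 against -0.01 over all genes. The summed level of 13 crypt base stem cell genes was 5389 and 4951 CPM in the 2 WT EphB2-positive libraries, 2602 and 709.9 CPM in the 2 WT EphB2-negative ones, 2668 to 3745 CPM in KO EphB2-positive and 313.5 and 370.6 CPM in KO EphB2-negative libraries. In KO against WT EphB2-negative cells 8 of 12 tested crypt genes fell and 0 rose, where 16.2% of all genes were called lower. Ephb2 fell there too (log2 fold change -1.56 ± 0.27, adjusted p = 0.0036). The part of a different share of crypt cells in the Smo and Ptch1 results was not tested. At crypt sums of 2602 and 2668 CPM, 1 library each, WT EphB2-negative replicate 1 had 12.3 CPM of Smo and KO EphB2-positive replicate 2 had 43.8 CPM. Their Ptch1 levels were 12.3 and 13.8 CPM. Ephb2 stood at 125 and 183 CPM in these 2 libraries, so their like sums are no measure of a like share of crypt cells.

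**Figure D3:**
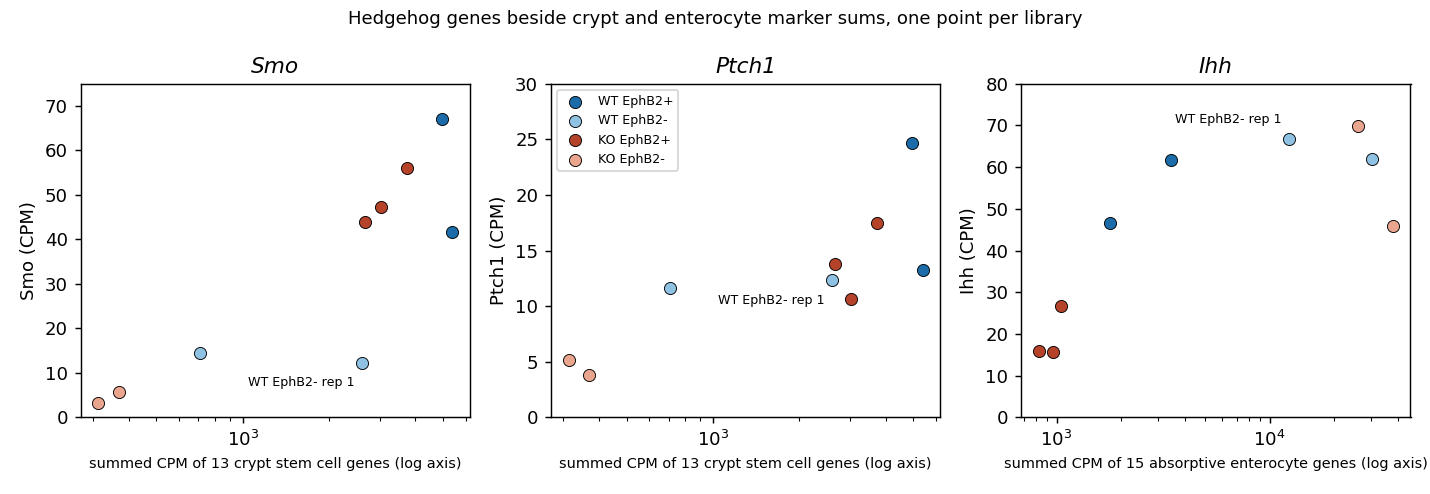
Smo and Ptch1 (CPM) against the summed CPM of 13 crypt stem cell genes and Ihh (CPM) against that of 15 absorptive enterocyte genes (log horizontal axes), 1 point per library. WT EphB2-negative replicate 1 has a crypt sum of 2602 CPM with 12.3 CPM of Smo, and the KO EphB2-positive libraries have the lowest absorptive sums, 825 to 1045 CPM, and the lowest Ihh.

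Sufu, which holds GLI proteins in the cytoplasm and favours their repressor forms (chromosome 19, 46396896 to 46488804, plus strand, ENSMUSG00000025231), passed in no comparison. It had 17.7 and 27.1 CPM in the WT EphB2-positive libraries, 17.3 and 18.9 CPM in WT EphB2-negative, 20.02, 24.8 and 23.1 CPM in KO EphB2-positive and 22.4 and 24.2 CPM in KO EphB2-negative. The 4 group means lay between 18.1 and 23.3 CPM, within the spread of the WT EphB2-positive pair. Its log2 fold changes were 0.02 ± 0.24 and 0.36 ± 0.27 for KO against WT in EphB2-positive and EphB2-negative cells and -0.04 ± 0.25 for the sorts in KO (adjusted p = 0.98, 0.33 and 0.91). Gli3, the GLI family member that acts mostly as a repressor (chromosome 13, 15463235 to 15730026, plus strand), had 6 reads in all, with no more than 2 in any library, or 0.0369 RPKM (0.0135 to 0.0802). Compared per length, the order of the members differed between groups. Ihh had a mean of 17.8, 21.1, 6.38 and 18.96 RPKM in WT EphB2-positive, WT EphB2-negative, KO EphB2-positive and KO EphB2-negative cells, and Smo had 9.68, 2.39, 8.73 and 0.794 RPKM in the same order. Smo thus stood above Ihh in KO EphB2-positive cells alone. Sufu, at 2.91, 2.35, 2.94 and 3.03 RPKM, was near Smo in WT EphB2-negative cells and above it in KO EphB2-negative cells, and Ptch1 was below Sufu in every group, at 0.315 to 1.34 RPKM.

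Several genes that act beside the members had few reads or none. Gli1, the GLI factor and target used as a readout of the pathway, had 1 read in the 9 libraries, and Gli2 had 0. The stromal Hedgehog targets Foxf1, Foxl1 and Bmp4 had 2, 1 and 2 reads. Among the co-receptors, Cdon had 337 reads and passed in none of the 4 tests, with 23.9, 25.3, 16.3 and 14.0 CPM in WT EphB2-positive, WT EphB2-negative, KO EphB2-positive and KO EphB2-negative cells, while Boc had 30 reads and Gas1 18. Of the Gas1 reads 11 were in KO EphB2-negative cells and 0 in KO EphB2-positive cells. Stromal markers were also highest in KO EphB2-negative cells: the 18 genes summed to 414 and 471 CPM there, against 28.8 and 163 CPM in WT EphB2-negative, 28.0 and 67.1 CPM in WT EphB2-positive and 24.0 to 115 CPM in KO EphB2-positive libraries. Of the 18, 16 had reads in KO EphB2-negative cells, where Vim alone had 193 CPM and Thy1 74.1 CPM. In KO against WT EphB2-negative cells 1 of 9 tested stromal genes rose and 8 did not pass, where 13.7% of all genes were called higher. Leukocyte markers summed to 1225 and 1511 CPM in KO EphB2-negative libraries, 127 and 1058 CPM in WT EphB2-negative replicates 1 and 2, 92.1 to 112 CPM in KO EphB2-positive and 63.6 and 65.3 CPM in WT EphB2-positive libraries. Lcp1 alone had 62.0 CPM in WT and 91.0 CPM in KO EphB2-positive cells, where 10 and 9 of the 11 had under 1 CPM. In each EphB2-positive group 4 of the 11 had 0 reads, and all 11 had reads in both EphB2-negative groups. The part of these cells in the differences was not tested.

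**Figure D4:**
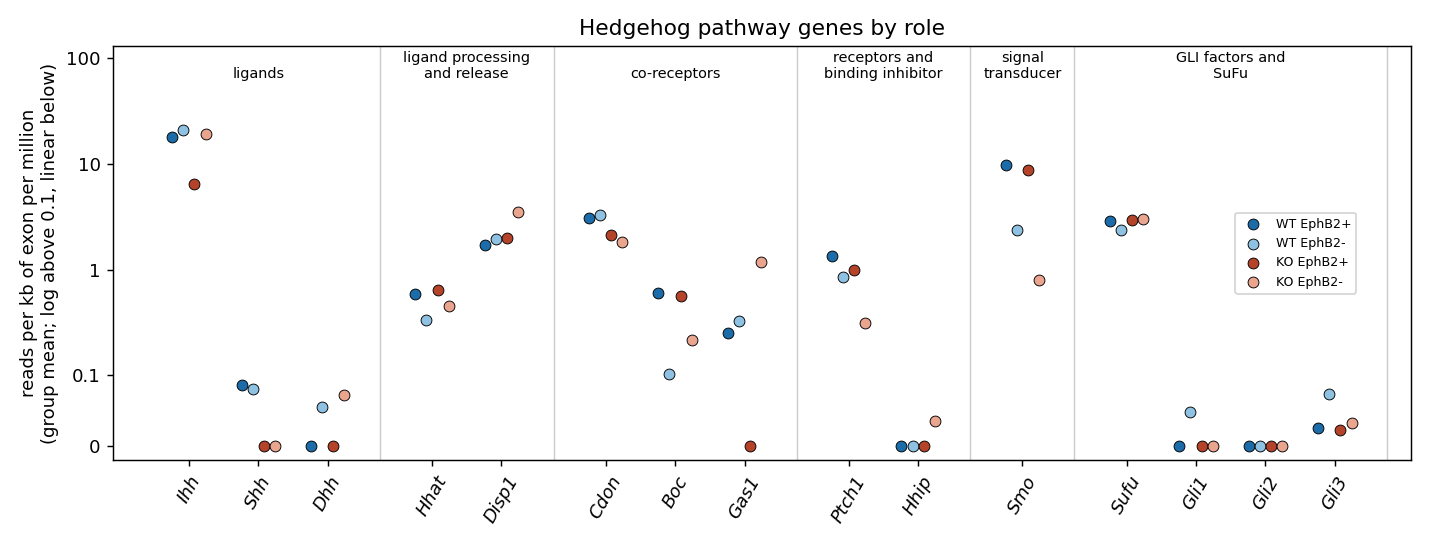
Group mean level per length (CPM per kilobase of exon, log scale above 0.1 and linear below) of 15 Hedgehog pathway genes ordered by role, 1 point per group. Ihh, Hhat, Disp1, Cdon, Boc, Ptch1, Smo and Sufu lie above 0.1 in every group, whereas Shh, Dhh, Hhip, Gli1, Gli2 and Gli3 lie below 0.1 in every group.

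Of 42 further pathway genes, from ligand release to GLI processing, 26 were tested. In EphB2-positive cells 3 of them fell in KO against WT, 0 rose and 23 did not pass (15.1% of all genes were called), with a median log2 fold change of 0.01 against -0.01 over all genes. They were Arrb1, the β-arrestin that helps move active Smo into the cilium (62.05 ± 13.4 to 30.9 ± 8.95 CPM, adjusted p = 0.024), Ulk3, a kinase of GLI proteins (17.97 ± 2.49 to 7.84 ± 1.06 CPM, adjusted p = 0.039), and Prkaca, the protein kinase A subunit that primes GLI for processing (94.3 ± 10.4 to 62.3 ± 11.2 CPM, adjusted p = 0.048). DESeq2 called 1, and voom and the fit on only the groups compared each called 8. Over the 16 alternatives Arrb1, Ulk3 and Prkaca kept their calls in 12, 7 and 5. The count was 8 when either WT EphB2-negative library was left out. It was 0 without either WT EphB2-positive library or KO EphB2-positive replicate 1 or 2, and 1 without KO EphB2-positive replicate 3 or either KO EphB2-negative library.

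In EphB2-negative cells 3 of the 26 rose, 2 fell and 21 did not pass (29.9% of all genes were called), with a median of 0.06 against -0.09 over all genes. Gpc3, a glypican that binds Hedgehog ligands in competition with Ptch1, rose from 168 ± 20.98 to 332 ± 29.1 CPM (log2 fold change 0.98 ± 0.18, adjusted p = 0.0043). Mgrn1, a ubiquitin ligase known to lower Smo at the cell surface, rose from 85.3 ± 3.18 to 162 ± 16.2 CPM (0.93 ± 0.18, adjusted p = 0.0063). Dyrk2, a kinase that acts on GLI proteins, rose from 21.8 ± 7.54 to 49.5 ± 11.1 CPM (1.18 ± 0.28, adjusted p = 0.012). Cul1, a scaffold of the ligase that processes GLI, and Disp2, a relative of the ligand-release protein Disp1, fell (adjusted p = 0.041 and 0.046), and the 2 WT values of Disp2 were 19.2 and 53.2 CPM. DESeq2 called 3, voom 2 and the fit on only the groups compared 0. Over the 16 alternatives Gpc3, Mgrn1, Dyrk2, Cul1 and Disp2 kept their calls in 15, 14, 13, 2 and 3. Without WT EphB2-negative replicate 1 Cul1 lost its call (adjusted p = 0.060), and without replicate 2 Disp2 did (-0.66, adjusted p = 0.23). The count of 5 became 8 without WT EphB2-negative replicate 2 and 1 without KO EphB2-negative replicate 2. It was 3 without KO EphB2-negative replicate 1 or any 1 of the 5 EphB2-positive libraries.

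Mgrn1 was highest in the group where Smo was lowest. It had 64.8 and 84.4 CPM in the WT EphB2-positive libraries, 83.1 and 87.6 CPM in WT EphB2-negative, 73.4, 68.1 and 87.4 CPM in KO EphB2-positive and 151 and 174 CPM in KO EphB2-negative. The KO EphB2-negative pair lay above the other 7 libraries, and the difference between the genotype effects passed (-0.90 ± 0.25, adjusted p = 0.046), as did that of Dyrk2 (-1.40 ± 0.38, adjusted p = 0.041). These were the 2 of 26 called in that test, where 12.4% of all genes were called. DESeq2 called 1 and voom 0. The count was 7 and 9 without WT EphB2-negative replicates 1 and 2, and 0 without any 1 of the other 7 libraries.

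Between the sorts in KO, 2 of the 26 were higher in EphB2-positive cells, 10 were lower and 14 did not pass (55.5% of all genes were called), with a median of -0.32 against -0.02 over all genes. Cul1 was higher (0.74 ± 0.14, adjusted p = 0.0017). Mgrn1, Arrb2, Dyrk2 and Arrb1 were lower, with log2 fold changes of -1.09 ± 0.17, -1.86 ± 0.39, -1.18 ± 0.25 and -1.15 ± 0.25 (adjusted p = 5.4e-04 to 0.0038). Disp1, which releases the lipid-bearing ligand from the producing cell, was lower too (18.2 ± 1.42 CPM in EphB2-negative against 10.5 ± 0.906 CPM in EphB2-positive KO cells, adjusted p = 0.037). DESeq2 called 9 and voom 16. The count of 12 became 6 without KO EphB2-negative replicate 1 and 8 without KO EphB2-negative replicate 2 or KO EphB2-positive replicate 1 or 2.

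Of 20 known Hedgehog target genes 6 were tested, and the 3 that differed most often, Ccnd1, Ccnd2 and Mycn, are cell cycle genes also driven by other pathways. Ccnd2, cyclin D2, fell in KO EphB2-negative cells from 363 ± 56.5 to 67.0 ± 3.84 CPM (log2 fold change -2.44 ± 0.20, adjusted p = 1.5e-04) and stood at 471 ± 14.7 and 403 ± 65.6 CPM in the WT and KO EphB2-positive groups. Ccnd1, cyclin D1, rose in EphB2-positive cells from 175 ± 7.13 to 338.5 ± 47.3 CPM (adjusted p = 0.046) and fell in EphB2-negative cells from 82.3 ± 43.8 to 38.3 ± 1.94 CPM (adjusted p = 0.033), with a difference of 2.05 ± 0.43 on the log2 scale (adjusted p = 0.019). The WT EphB2-negative libraries had 113 and 51.3 CPM of Ccnd1, and without the first of them, replicate 1, the fall was no longer called (-0.42, adjusted p = 0.16, range over 16 alternatives 2.7e-06 to 0.17), while the difference between sorts was (1.38, adjusted p = 0.0011). Over the 16 alternatives the rise was called in 8 and the fall in 6. Mycn, the N-Myc transcription factor, had 19.7 and 9.87 CPM in the WT EphB2-positive libraries, 15.1 and 12.1 CPM in WT EphB2-negative, 0.667, 0.952 and 1.54 CPM in KO EphB2-positive and 14.1 and 7.64 CPM in KO EphB2-negative. All 3 KO EphB2-positive libraries lay below the other 6, the same order as for Ihh (log2 fold change -3.70 ± 0.54, adjusted p = 0.0021, from 6 reads in the 3 KO libraries).

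By count, 1 of the 6 target genes rose and 1 fell in EphB2-positive cells, and 0 rose and 2 fell in EphB2-negative cells, where 15.1% and 29.9% of all genes were called. In KO, 3 were higher and 2 lower in the EphB2-positive sort, the others there being Hsd11b2 (higher, with 2 reads in KO EphB2-negative cells) and Bmp2 (lower, adjusted p = 0.0499), with 55.5% of all genes called. In the test of the difference between sorts 3 passed, Ccnd2, Ccnd1 and Mycn (12.4% of all genes). DESeq2 called 2, 2, 4 and 2 in these 4 tests and voom 2, 1, 5 and 3. Single libraries changed these small counts. In EphB2-positive cells the count of 2 was 1 without any 1 library other than the WT EphB2-negative pair. In EphB2-negative cells the count of 2 was 4 without WT EphB2-negative replicate 2 and 1 without WT EphB2-negative replicate 1, either WT EphB2-positive, either KO EphB2-negative or KO EphB2-positive replicate 2 or 3. In KO, the count of 5 was 3 without KO EphB2-negative replicate 2. For the difference between sorts, the count of 3 was 5 without WT EphB2-negative replicate 2, and 1 without either WT EphB2-positive, either KO EphB2-negative or KO EphB2-positive replicate 2.

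Genes of the primary cilium, the organelle in which Smo signals, were described by a list of 25, of which 21 were tested. In KO against WT, 3 fell in EphB2-positive and 4 fell in EphB2-negative cells and 0 rose in either (15.1% and 29.9% of all genes were called), with medians of -0.19 and -0.55 against -0.01 and -0.09 over all genes. Cc2d2a, a protein of the gate at the base of the cilium, fell in both sorts, from 37.2 ± 6.50 to 10.1 ± 1.89 CPM (log2 fold change -1.89 ± 0.34, adjusted p = 0.0058) and from 12.1 ± 4.15 to 1.59 ± 1.35 CPM (-2.88 ± 0.55, adjusted p = 0.0055). Ift140, a carrier protein of the retrograde transport train, also fell in both (adjusted p = 0.024 and 0.037). Inpp5e, a ciliary lipid phosphatase, fell in EphB2-positive cells (adjusted p = 0.04998). Cep164 and Cep290, proteins of the ciliary base, fell in EphB2-negative cells (-1.35 ± 0.29 and -1.44 ± 0.41, adjusted p = 0.0094 and 0.027). DESeq2 called 1 and 2 in the 2 sorts, voom 4 and 2, and the fit on only the groups compared 4 and 0. Over the 16 alternatives Cc2d2a kept its call in 15 in each sort, and Ift140 in 9 in EphB2-positive and 2 in EphB2-negative cells. Inpp5e kept its call in 4, Cep164 in 14 and Cep290 in 9. Without WT EphB2-negative replicate 1, Ift140 and Cep290 lost their calls in EphB2-negative cells (adjusted p = 0.12 and 0.085).

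Between the sorts in KO, 8 cilium genes were higher in EphB2-positive cells, Cep290, Cc2d2a, Cep164, Ift88 and Rpgrip1l among them (log2 fold changes 1.02 to 2.60), and 1, Kif3b, a motor subunit that also carries other cargo, was lower (-1.06 ± 0.23), while 12 did not pass (55.5% of all genes were called). DESeq2 called 4 and voom 9. In the test of the difference between sorts edgeR called 0 of the 21, with 2 at an unadjusted p under 0.05, and DESeq2 and voom called 0. The 2 with the highest mean level, Kif3b and Ift52, had differences of -0.50 ± 0.35 and 0.34 ± 0.30 (adjusted p = 0.37 and 0.48). These counts also turned on single libraries. The 3 calls in EphB2-positive cells ended without WT EphB2-positive replicate 1 and were 1 without replicate 2 of that group or any 1 of the KO EphB2-positive libraries, and 2 without either KO EphB2-negative library. The 4 calls in EphB2-negative cells became 1 and 2 without KO EphB2-negative replicates 1 and 2, and 9 in KO became 4 and 5 without the same libraries, 5 without KO EphB2-positive replicate 2 and 6 without replicate 3. The 0 calls in the difference between sorts became 4 without WT EphB2-negative replicate 2.

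The genes whose levels ran most closely with each tested member were sought among 9529 genes, by Pearson correlation of log2 CPM over the 9 libraries, which fall into groups by sort and genotype. For Smo they were Rbm6 (r = 0.988), Maoa (0.979) and Hira (0.974), for Ihh Snx15 (0.973), Grhpr (0.968) and H2-T3 (0.967), and for Ptch1 Ppt2 (0.982), Topors (0.967) and Kdm1a (0.959). The closest for Sufu were lower, Cdyl (0.834), Notch2 (0.825) and Asap2 (0.817). No pathway gene was among these neighbours.

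**Figure D5:**
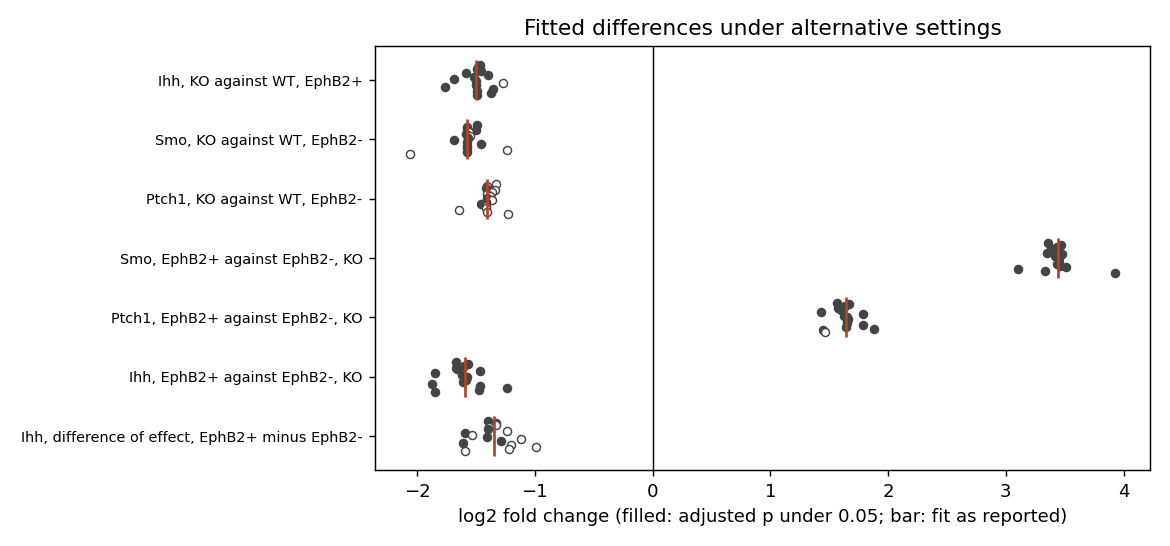
Log2 fold changes (horizontal axis) of 7 member results under each alternative setting (points, filled where adjusted p is under 0.05), with a bar at the reported value. Smo and Ihh between the sorts in KO stay filled throughout (3.10 to 3.93 and -1.87 to -1.24), whereas Ptch1 in KO against WT EphB2-negative cells is filled in 4 of 16.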

How the data were processed

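Per the labels' protocols, cDNA of poly(A) RNA from sorted cells was PCR-amplified (long-distance PCR) and sheared before Illumina sequencing. The deposited values are whole-number read counts for 24421 gene symbols per library, made by the authors. CASAVA 1.4, FastQC, Bowtie2, HTSeq, DESeq2 and the build mm10 are named in the submitters' processing notes, while the sources used here give neither the annotation nor the strand setting. Reads outside genes (9.97% to 14.7% of all) and ambiguous reads (1.89% to 2.28%), kept in 5 summary lines, stayed out of sums and tests.

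One edgeR model (version 4.0.16, R 4.3.3) held all 9 libraries with a mean for each of the 4 groups, TMM scaling and the 11577 genes kept by filterByExpr. Its robust quasi-likelihood F test is two-sided and had 5 residual degrees of freedom. P-values were adjusted by Benjamini-Hochberg over these genes and called under 0.05, and each SE was obtained by dividing the log2 fold change by the root of F. CPM values are TMM-scaled, and lengths and positions are GENCODE M21 exon unions on GRCm38. RPKM over all libraries uses unscaled totals.

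Members and gene lists were chosen with earlier results of these data known. Named genes are the members, Nfkbia and Ephb2, from each list up to 6 called genes per comparison by p-value (the 2 most abundant where none was called), and the 3 closest neighbours of each tested member at a mean of 10 CPM or more (prior count 2). The other pathway genes given by their reads, with Disp1 and Cdon where they were not taken by that rule, were chosen after their values were seen. Some genes the rule takes are not reported here. Alternatives were DESeq2 size factors, no filter, DESeq2 1.42.0, a filter of 5 CPM in 2 libraries, replicate blocks, voom with quality weights (limma 3.58.1), only the groups compared, and leaving out each library. The fit was tested on simulated data. Figures used matplotlib 3.10.9 under Python 3.11.15.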

Additional observations from a re-analysis of the deposited data

How the results depend on the processing

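Over the 16 member results for which a p-value was computed, 225 of 260 alternatives kept the direction and the side of the threshold. Of the rest, 18 lost the call, 8 gained one and 9 changed sign, and no value that changed sign was called. The difference of effects for Smo, given above as a description only, is counted among these results. It makes up 15 of the alternatives that kept their side and 1 of those that gained a call. Of the 9, 8 came from leaving out a library, and the other was Sufu between the sorts in KO (-0.04), at 0.040 with a replicate block by the code in the file names. With 1 library left out, KO against WT in EphB2-positive cells ranged from -0.45 to 0.24 for Smo, -0.81 to 0.094 for Ptch1 and -0.25 to 0.37 for Sufu, KO against WT in EphB2-negative cells from -0.50 to 0.11 for Ihh, Sufu between the sorts in KO from -0.11 to 0.037, and its difference of effects from -0.62 to 0.013. The WT sort difference ranged from 1.63 to 2.33 for Smo, 0.14 to 1.05 for Ptch1 and -0.04 to 0.60 for Sufu. With no library left out, members called were 1 (reported 1) and 0 to 2 (reported 2) for KO against WT in EphB2-positive and EphB2-negative cells. They were 3 (reported 3) between the sorts in KO and 0 to 1 (reported 0) for the difference of effects. Leaving out single libraries changed these counts. In EphB2-negative cells 1 member was called with DESeq2 size factors, no filter, DESeq2 or the replicate block, and 0 with voom or only the groups compared. For the difference of effects 1 was called with DESeq2 size factors, no filter, voom or the block by file code. Genes called in EphB2-positive cells were 1746, against 3554 with voom, 1055 with the replicate block, 3734 with only the groups compared and 568 to 3479 with a library left out. In EphB2-negative cells they were 3456, against 1614 with voom, 149 with only the groups compared and 1096 to 5834. Between the sorts in KO they were 6428, against 4437 to 7697, and for the difference of effects 1430, against 895 with the replicate block and 32 to 3996. The cause of these changes was not tested. In EphB2-negative cells 1586 genes were called higher and 1870 lower, and 1446 and 1105 by DESeq2. Same-numbered libraries of the 2 sorts had correlations of their deviations of 0.13 in WT and 0.038 and -0.071 in KO, so the numbers were not taken to pair samples. Libraries that share a code in their file names had 0.13 in WT, where the code and the number give the same pairs. In KO they had 0.071 and 0.108, all positive but not all over 0.1. With 2 or 3 libraries a group these values cannot decide whether the codes mark paired samples, and the fit as reported holds no pairing. With the replicate block Ptch1 in KO against WT EphB2-negative cells lost its call (-1.41, adjusted p = 0.057), and no other member's call changed. The block by file code could not be fitted for KO against WT, and the difference of effects was not run on the compared groups alone, since it uses all 4. With 2 or 3 libraries a group and 14 Smo reads and 14 Ptch1 reads in KO EphB2-negative cells, depth limits both results there.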
